A study of Mus musculus with 28 samples.

Results

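Described here are 10 mouse genes of the actin cytoskeleton and of its transcriptional control by serum response factor, chosen by name. They are Acta1, Actc1, Tpm1, Tpm2, Vcl, Actn1, Flna, Jph2, Srf and Myocd, out of 54109 gene identifiers measured in reprogramming cells and 54838 measured in induced pluripotent stem cells (iPSC). RNA was sequenced from 12 libraries of mouse embryonic fibroblasts in reprogramming and from 6 libraries of iPSC, with 3 libraries in each of 6 groups. The fibroblasts came from mouse embryos at midgestation, embryonic day E13.5 to E15.5. All were heterozygous for Rosa26-rtTA and Oct4-GFP, and carried either 1 copy of a doxycycline-inducible OKSM allele or were homozygous for an inducible OKS allele; the labels do not say which of these alleles a library had. All cells were grown on irradiated feeder cells, whose RNA could enter the libraries. The reprogramming cells received doxycycline at 1 µg/ml, and no dose is listed for the iPSC libraries.

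The reprogramming groups were DOX 3C UNC, DOX 3C, DOX UNC and DOX alone. UNC stands for UNC0638 at 1 µM, an inhibitor of the H3K9 methyltransferases G9a and GLP. 3C stands for L-ascorbic acid at 50 µg/ml, the GSK3 inhibitor CHIR99021 at 3 µM and an inhibitor of the TGF-beta type I receptor kinase at 250 nM, given together. The iPSC UNC group came from reprogramming with UNC0638 for the first 48 hours, and the iPSC DMSO group from reprogramming with the solvent. The time of harvest of the 12 reprogramming libraries was not given in the labels. The comparisons address whether inhibiting H3K9 dimethylation acts on reprogramming cells in the same way in basal medium and in medium with 3C.

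Actin filaments assemble from globular monomers, and tropomyosin, alpha-actinin, filamin and vinculin stiffen them, cross-link them or tie them to the cell membrane. Serum response factor (SRF) binds CArG boxes in the promoters of many of these genes. Its cofactors of the myocardin-related family (MRTF) are held by free actin monomers and move to the nucleus when monomers are used up, whereas its ternary complex factors (TCF) answer to growth factor signals. Fibroblasts build stress fibres from these proteins, and loss of the fibroblast state in reprogramming is known to include a rebuilding of the cytoskeleton.

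The promoters of 4 of the genes held the consensus CArG box, which is the site that SRF recognises, and are shown because they set these 4 apart from the other genes described. RefSeq promoter windows (build GRCm38.p6) of 250 bases before and 50 bases after an annotated transcript start were given for 9 of the 10 genes. The bases before the start are printed from 5′ to 3′ on the strand of the gene, with the box in capitals.
Acta1: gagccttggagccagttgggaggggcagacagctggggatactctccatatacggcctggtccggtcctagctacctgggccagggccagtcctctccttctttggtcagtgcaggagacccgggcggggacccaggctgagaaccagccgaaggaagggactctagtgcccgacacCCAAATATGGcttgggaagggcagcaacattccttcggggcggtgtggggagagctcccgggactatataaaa
Actc1: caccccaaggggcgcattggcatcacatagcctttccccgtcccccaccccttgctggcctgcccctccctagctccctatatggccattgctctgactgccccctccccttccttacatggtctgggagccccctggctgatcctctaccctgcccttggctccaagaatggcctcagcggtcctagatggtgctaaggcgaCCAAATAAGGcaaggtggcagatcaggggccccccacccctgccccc
Vcl: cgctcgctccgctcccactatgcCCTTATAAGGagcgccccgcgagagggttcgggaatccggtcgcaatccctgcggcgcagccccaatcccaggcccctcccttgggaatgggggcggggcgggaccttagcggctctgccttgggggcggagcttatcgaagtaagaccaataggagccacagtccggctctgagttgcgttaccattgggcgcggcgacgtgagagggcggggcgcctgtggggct
Srf: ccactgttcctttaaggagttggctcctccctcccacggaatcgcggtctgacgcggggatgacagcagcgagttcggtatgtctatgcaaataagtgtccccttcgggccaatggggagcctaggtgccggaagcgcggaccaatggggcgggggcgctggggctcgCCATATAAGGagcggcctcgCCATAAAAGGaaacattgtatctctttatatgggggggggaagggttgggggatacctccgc
The sequence of Acta1 lies at chr8:123894776-123895025 and that of Actc1 at chr2:114052876-114053125, both on the minus strand. That of Vcl lies at chr14:20929148-20929397 on the plus strand and that of Srf at chr17:46556163-46556412 on the minus strand. The first base of the box was 73 bases before the start in Acta1, 47 in Actc1 and 227 in Vcl. Srf held a pair of boxes, at 82 and 62 bases before the start. The box reads in the same class of letters on both strands, so a search of 1 strand covers both. It was found in 1.63% of all 32851 windows and in genes making up 1.81% of the 27025 genes with a window. No such letters were found in the windows of Tpm1, Tpm2, Actn1, Flna and Jph2, which says nothing of sites elsewhere. The transcript starts of the Flna and Srf windows lie 3320 and 2105 bases inside the widest annotated extent of the gene, so they are inner starts.

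**Figure D1:**
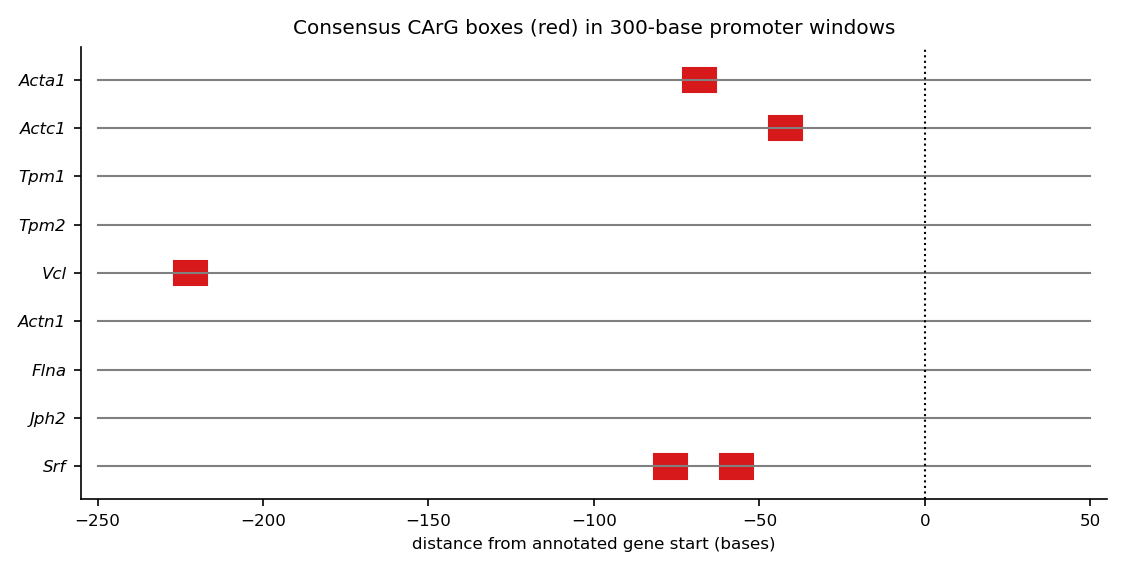
Position of the consensus CArG box (red) in the promoter windows of 9 of the genes, along the distance in bases from the annotated transcript start (dotted line). Acta1, Actc1 and Vcl hold 1 box each, Srf holds 2, and the other 5 genes hold none within the window. Jph2 has 2 windows in the table, of which 1 is drawn.

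In the reprogramming libraries 10616764 to 20211641 reads fell in genes, and in the iPSC libraries 21592023 to 25408585. Levels are normalised read counts for the reprogramming libraries and CPM (reads of a gene per 1000000 reads in genes) for the iPSC libraries. Neither is divided by gene length, so levels are compared between groups and not between genes. The labels were checked against marker genes. In the 12 reprogramming libraries each of 7 pluripotency genes stayed under 1 CPM, and in the iPSC libraries the 7 summed to 3450 to 3955 CPM. All 8 cardiac muscle markers were under 1 CPM in the reprogramming groups, as were at least 8 of 9 skeletal muscle markers. In bulk RNA, fewer cells of one type and less RNA per cell cannot be told apart.

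For 9 of the 10 genes the group means followed 1 order, from DOX UNC at the top through DOX and DOX 3C UNC to DOX 3C at the bottom. Myocd was the exception. The share of all genes with this order was not computed. Libraries of neighbouring groups overlapped in some of the 9 genes, among them Srf and Actc1 for DOX UNC against DOX. Each of 8 genes had a normalised count of at least 10 in all 12 libraries and was tested with limma. P-values were adjusted over 16138 genes, with a call at an adjusted p below 0.05. Libraries were not paired by replicate number in this fit, except where a replicate block is named. Actc1 and Myocd had too few reads to be tested. Together the 10 genes took 0.440 ± 0.0129% of reads in DOX 3C UNC, 0.385 ± 0.00891% in DOX 3C, 0.712 ± 0.0296% in DOX UNC and 0.640 ± 0.0205% in DOX (SD, n = 3 libraries per group). Flna alone made up 59.7 to 69.8% of these reads in the 12 libraries, so the sum is mostly the level of Flna.

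**Figure D2:**
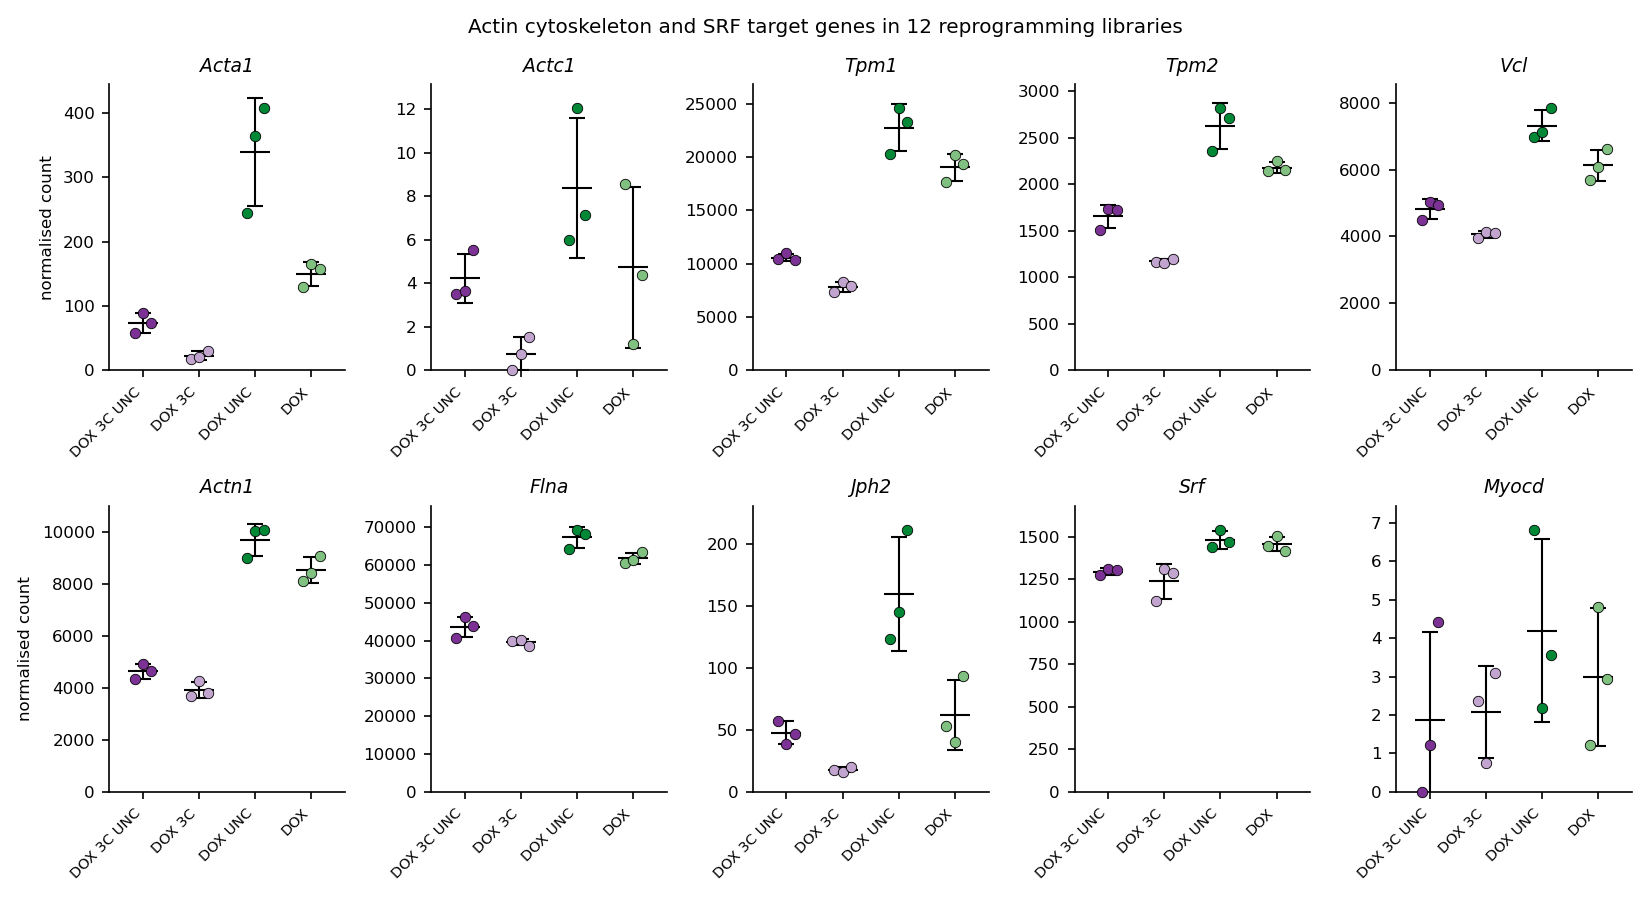
Normalised counts of the 10 genes in the 12 reprogramming libraries. Each point is 1 library, the wide bar is the mean and the whiskers are ± SD (n = 3), with whiskers cut at 0. The y axes start at 0 and differ between genes. By its mean, DOX UNC is the highest group for all 10 genes, and DOX 3C the lowest for all but Myocd.

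UNC0638 was followed by higher levels of several of these genes in both media, and 3C by lower levels. In medium with 3C, 6 of the 8 tested genes rose with UNC and 0 fell, where 7.71% of all genes tested rose and 3.94% fell (limma). They were Acta1, Jph2, Tpm1, Tpm2, Vcl and Actn1. In basal medium 2 of the 8 rose, Acta1 and Jph2, and 0 fell, where 0.508% of all genes rose and 0.0991% fell. With the replicate number as a block in the same fit, 6 of the 8 rose in basal medium, the same 6 genes as with 3C, where 409 of all genes were called in place of 98. With the block 2871 genes were called for UNC with 3C in place of 1880, and again 6 of the 8. With 3C in the absence of UNC, all 8 fell, where 24.7% of all genes fell and as many, 24.7%, rose. All 8 fell with 3C in the presence of UNC as well, where 23.5% of all genes fell and 23.9% rose. The median log2 fold change of the 8 genes was 0.34 for UNC with 3C, 0.26 for UNC without 3C, -1.01 for 3C without UNC and -0.87 for 3C with UNC. Over all genes tested these medians were -0.002 for UNC with 3C, 0.004 for UNC without 3C, 0.015 for 3C without UNC and 0.012 for 3C with UNC. The comparisons of UNC and of 3C share libraries, the DOX libraries for example, and are not independent of each other.

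Without any test, the 3 libraries of each group were also compared for overlap. All DOX 3C UNC libraries stood above all DOX 3C libraries in 7 of the 8 tested genes, and all DOX UNC above all DOX libraries in 6 of them. The same held for 16.1% and 8.47% of all genes tested. All DOX 3C libraries stood below all DOX libraries in the 8 genes, and so did DOX 3C UNC against DOX UNC, where 28.4% and 26.9% of all genes tested lay apart in this way. Outside the genes tested, Actc1 was apart for UNC with 3C (higher) and for 3C with UNC (lower), at very few reads, and Myocd in neither.

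**Figure D3:**
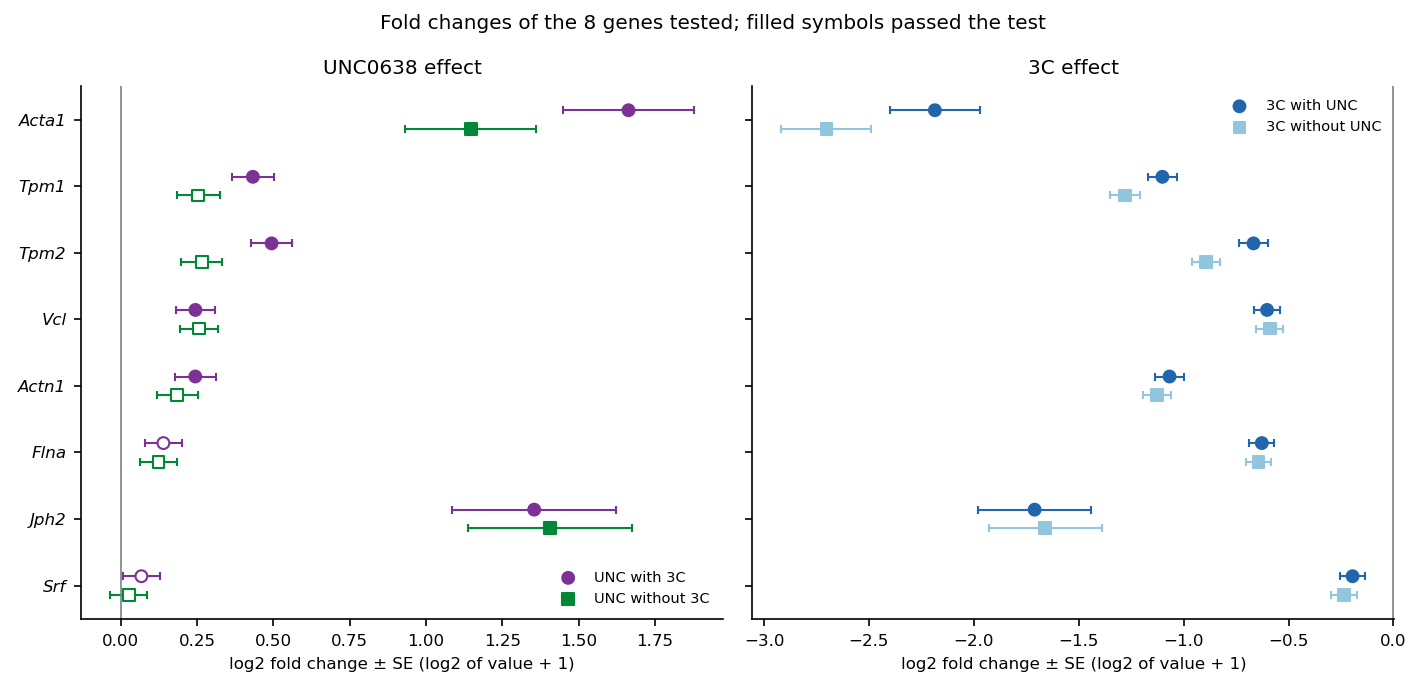
Log2 fold changes ± SE of the 8 genes tested, on the scale of log2(normalised count + 1), for UNC with 3C and without 3C (left) and for 3C with UNC and without UNC (right). Filled symbols passed the test (limma, adjusted p below 0.05). Acta1 and Jph2 have the largest changes of the 8 in both directions, and Srf the smallest.

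Summed levels of fibroblast and of smooth muscle markers were also higher with UNC and lower with 3C, although single markers differed in direction with 3C. The 8 fibroblast markers summed to 4812 to 5265 CPM in DOX 3C UNC, 2815 to 3326 CPM in DOX 3C, 9282 to 9761 CPM in DOX UNC and 7473 to 8354 CPM in DOX. With 3C, 7 of the 8 rose with UNC, among them Col1a1, a chain of collagen I (log2 fold change 0.93). Without 3C, 0 of the 8 passed with a median of 0.32, and 6 smooth muscle markers held 3 that rose. The 6 smooth muscle markers summed to 47.7 to 64.9 CPM in DOX 3C UNC, 23.5 to 29.2 CPM in DOX 3C, 68.5 to 85.1 CPM in DOX UNC and 49.0 to 54.1 CPM in DOX. The 3 that rose without 3C were Myh11, the smooth muscle myosin heavy chain (1.71), Lmod1, an actin-nucleating leiomodin (0.92), and Mylk, the myosin light chain kinase (0.96). With 3C, 4 of the 6 rose with UNC. With 3C in the absence of UNC, 5 of the 8 fibroblast and 4 of the 6 smooth muscle markers fell and 0 rose (limma). The fibroblast markers that did not pass were Thy1, a surface glycoprotein (-0.14), Pdgfrb, a PDGF receptor (-0.0001), and Lum, the proteoglycan lumican (-0.04). With 3C in the presence of UNC the fibroblast markers were split, with 4 lower, and with Thy1 (0.35), Pdgfrb (0.49) and Lum (1.08) higher. Of the smooth muscle markers 3 fell there and Des, the muscle intermediate filament desmin, rose (1.52), while all 8 tested genes described here fell. Each of the 6 smooth muscle and 8 fibroblast markers reached 1 CPM in at least 1 library of every reprogramming group. These are marker levels in bulk RNA and not counts of cells. The part of any cell type in the changes of the 10 genes was not tested. Summed erythroid markers reached 133.6 CPM in 1 DOX 3C library, against 6.98 CPM in the lowest library of that group.

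Among the actins, Acta1 encodes skeletal muscle alpha-actin (ENSMUSG00000031972, chr8:123891758-123894775 in RefSeq GRCm38.p6). Its normalised count was 57.1, 88.5 and 74.0 in DOX 3C UNC, against 17.8, 20.0 and 30.1 in DOX 3C. Without 3C it was 245, 364 and 408 in DOX UNC, against 129, 165 and 157 in DOX. All libraries with UNC lay above all libraries without it within each medium, and all libraries with 3C lay below all without. With UNC, Acta1 was 3.17-fold higher in the presence of 3C (log2 fold change 1.66 ± 0.21, adjusted p = 7.36e-05, limma) and 2.21-fold higher in its absence (1.15 ± 0.21, adjusted p = 0.0165). Of all genes tested, 99.74% and 99.64% had a log2 fold change at or below that of Acta1 in these comparisons. In the absence of UNC, 3C lowered Acta1 6.51-fold (-2.70 ± 0.21, adjusted p = 9.72e-09), and in its presence 4.55-fold (-2.19 ± 0.21, adjusted p = 1.58e-07). The call for UNC without 3C was lost on leaving out DOX replicate 1 or 3 or DOX UNC replicate 2 or 3 (limma, adjusted p = 0.0888, 0.0535, 0.0841 and 0.14), with log2 fold changes of 1.00 to 1.36 over the 6 libraries left out in turn.

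Actc1, the cardiac alpha-actin gene (ENSMUSG00000068614, chr2:114047282-114052875), was close to the limit of detection. Its reads numbered 3, 3 and 5 in the DOX 3C UNC libraries, against 0, 1 and 2 in the DOX 3C libraries. There were 7, 11 and 8 reads in the DOX UNC libraries, against 7, 1 and 3 in the DOX libraries. Reads were summed over a group and set against the summed library factors of the normalised counts. On this scale Actc1 was 4.94-fold higher with UNC in the presence of 3C (95% interval 1.31 to 27.6) and 1.72-fold higher in its absence (0.821 to 3.86). With 3C and no UNC the ratio was 0.182 (0.0326 to 0.690), and with 3C and UNC 0.524 (0.234 to 1.10). These intervals cover counting error only and not the spread between libraries. In a limma fit with no filter on low values Actc1 passed in no comparison, with the smallest adjusted p at 0.0544 for 3C without UNC. Acta1 and Actc1 encode closely related actins, and how reads that match both genes were counted was not given. Such reads could affect their separate levels, which was not tested.

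Tropomyosins lie along the actin filament and control which proteins reach it. Tpm1 (ENSMUSG00000032366, chr9:67022590-67049672) had normalised counts of 10406, 10994 and 10318 in DOX 3C UNC, against 7339, 8248 and 7923 in DOX 3C. It had 20298, 24607 and 23341 in DOX UNC, against 17643, 20158 and 19322.5 in DOX. Neither pair of groups overlapped, although the lowest DOX UNC library stood only just above the highest DOX library. Tpm1 rose 1.35-fold with UNC in the presence of 3C (log2 fold change 0.43 ± 0.07, adjusted p = 0.000567, limma). In its absence the difference was 0.25 ± 0.07 and did not pass (adjusted p = 0.128), but did with the replicate block (adjusted p = 0.0032). With 3C, Tpm1 fell 2.43-fold without UNC (-1.28 ± 0.07, adjusted p = 7.14e-11) and 2.15-fold with UNC (-1.10 ± 0.07, adjusted p = 5.55e-10).

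Tpm2, the beta-tropomyosin gene (ENSMUSG00000028464, chr4:43513726-43523583), had normalised counts of 1507, 1727 and 1722 in DOX 3C UNC, against 1165, 1154 and 1192 in DOX 3C. It had 2352, 2818 and 2709.6 in DOX UNC, against 2136, 2247 and 2151 in DOX. Tpm2 rose 1.41-fold with UNC in the presence of 3C (log2 fold change 0.49 ± 0.07, adjusted p = 0.000125, limma), while in its absence 0.27 ± 0.07 did not pass (adjusted p = 0.0893), but did with the replicate block (adjusted p = 0.00783). It fell 1.86-fold with 3C in the absence of UNC (-0.90 ± 0.07, adjusted p = 4.76e-09) and 1.59-fold in its presence (-0.67 ± 0.07, adjusted p = 2.23e-07). Without DOX UNC 1, the library with the lowest values of its group for both tropomyosins, the UNC effect in basal medium passed for Tpm1 and Tpm2 (adjusted p = 0.0239 and 0.0179).

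Vcl (ENSMUSG00000021823, chr14:20929383-21033676) encodes vinculin, which links filaments to integrin and cadherin adhesions. Its normalised count was 4478, 5036 and 4933 in DOX 3C UNC, against 3952, 4126 and 4099 in DOX 3C. It was 6966, 7129.7 and 7839 in DOX UNC, against 5672, 6085 and 6609.7 in DOX. The groups with and without UNC did not overlap in either medium, but the differences were small. Vcl rose 1.18-fold with UNC in the presence of 3C (log2 fold change 0.24 ± 0.06, adjusted p = 0.0165, limma), and 0.26 ± 0.06 in its absence did not pass (adjusted p = 0.0765), but did with the replicate block (adjusted p = 0.00289). The call with 3C was lost on leaving out replicate 1 of DOX 3C, or replicate 2 or 3 of DOX 3C UNC (adjusted p = 0.0555, 0.0568 and 0.072). With 3C, Vcl fell 1.51-fold in the absence of UNC (-0.59 ± 0.06) and 1.52-fold in its presence (-0.60 ± 0.06, adjusted p = 4.23e-07 and 3.45e-07).

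Actn1 (ENSMUSG00000015143, chr12:80167542-80260420) encodes alpha-actinin-1, which bundles filaments in stress fibres. Its normalised count was 4315, 4902 and 4649 in DOX 3C UNC, against 3689, 4249 and 3772 in DOX 3C. It was 8972, 10011 and 10077 in DOX UNC, against 8093, 8396 and 9067 in DOX. The highest DOX library stood above the lowest DOX UNC library, while the groups with 3C were apart. Actn1 rose 1.18-fold with UNC in the presence of 3C (log2 fold change 0.24 ± 0.07, adjusted p = 0.0238, limma), and 0.19 ± 0.07 in its absence did not pass (adjusted p = 0.33), but did narrowly with the replicate block (adjusted p = 0.0472). The call with 3C was lost on leaving out replicate 1 or 3 of DOX 3C, or replicate 2 or 3 of DOX 3C UNC (adjusted p = 0.0924, 0.0826, 0.0822 and 0.0768). With 3C it fell 2.18-fold in the absence of UNC (-1.13 ± 0.07) and by 1.07 ± 0.07 on the log2 scale in its presence (adjusted p = 2.16e-10 and 4.68e-10).

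Flna (ENSMUSG00000031328, chrX:74223461-74249854) encodes filamin A, a cross-linker that joins filaments into orthogonal networks. It had 40806, 46184 and 43921 normalised counts in DOX 3C UNC, against 39977.5, 40048 and 38632 in DOX 3C. It had 64323, 69443 and 68311.5 in DOX UNC, against 60576, 61386 and 63375 in DOX. All libraries with UNC were higher than those without it in the same medium, by little. The UNC effect did not pass with 3C (log2 fold change 0.14 ± 0.06, adjusted p = 0.143, limma) nor without it (0.12 ± 0.06, adjusted p = 0.541). With 3C it passed without DOX 3C UNC 1 (adjusted p = 0.0404) and in DESeq2 (adjusted p = 0.0205). With 3C, Flna fell 1.56-fold in the absence of UNC (-0.64 ± 0.06) and 1.54-fold in its presence (-0.63 ± 0.06, adjusted p = 7.15e-08 and 1.04e-07).

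Jph2 (ENSMUSG00000017817, chr2:163336242-163398049) encodes junctophilin-2, which in heart muscle holds the plasma membrane close to the calcium store. It is known as a muscle gene and is not part of the actin filament. Its normalised count was 57.1, 38.8 and 46.4 in DOX 3C UNC, against 17.8, 15.6 and 20.1 in DOX 3C. It was 123, 145 and 212 in DOX UNC, against 52.7, 39.6 and 93.7 in DOX. The groups with UNC lay above those without in both media, and the DOX 3C UNC libraries lay within the range of the DOX libraries or just below it. Jph2 rose 2.56-fold with UNC in the presence of 3C (log2 fold change 1.35 ± 0.27, adjusted p = 0.00306, limma) and 2.65-fold in its absence (1.40 ± 0.27, adjusted p = 0.0196). With 3C it fell 3.16-fold in the absence of UNC (-1.66 ± 0.27, adjusted p = 5.26e-05) and 3.27-fold in its presence (-1.71 ± 0.27, adjusted p = 4.01e-05). The call for UNC without 3C was lost on leaving out DOX replicate 1 or 2 or DOX UNC replicate 2 or 3 (adjusted p = 0.0849, 0.077, 0.067 and 0.148), with log2 fold changes of 1.13 to 1.74 over the libraries left out in turn.

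The gene of the transcription factor itself differed little. Srf (ENSMUSG00000015605, chr17:46546838-46558267) had normalised counts of 1272, 1309 and 1304 in DOX 3C UNC, against 1119.9, 1309 and 1286 in DOX 3C. It had 1438, 1542 and 1469 in DOX UNC, against 1447, 1502 and 1419 in DOX. Libraries with and without UNC overlapped in both media. The log2 fold change with UNC was 0.07 (95% interval -0.06 to 0.20) in the presence of 3C and 0.03 (-0.10 to 0.15) in its absence (adjusted p = 0.522 and 0.946, limma). With 3C, Srf fell 1.18-fold in the absence of UNC (-0.24 ± 0.06, adjusted p = 0.00343) and 1.14-fold in its presence (-0.19 ± 0.06, adjusted p = 0.0131). The call in the presence of UNC was lost on leaving out DOX UNC replicate 2 (adjusted p = 0.0595).

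Myocd (ENSMUSG00000020542, chr11:65173608-65269989), which encodes the SRF cofactor myocardin of heart and smooth muscle, was close to the limit of detection throughout. It had 0, 1 and 4 reads in the DOX 3C UNC libraries, 2, 1 and 4 in DOX 3C, 8, 2 and 4 in DOX UNC and 1, 4 and 2 in DOX. The groups overlapped in each comparison. The ratio for UNC was 0.963 (95% interval 0.241 to 3.52, counting error only) with 3C and 1.46 (0.550 to 4.26) without it. Differences within these intervals were not detectable at this depth.

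A direct test of whether the UNC effect differed between the media called 0 of the 8 genes, where 0.062% of all genes were called (limma, difference of the UNC effect with 3C and that without 3C). At an unadjusted p below 0.05 there was 1, Tpm2, with a difference of 0.23 on the log2 scale (95% interval 0.03 to 0.43, adjusted p = 0.373). edgeR and DESeq2 on the recovered reads, and limma with the replicate block, also called 0 of the 8; the block called 413 of all genes in place of 10. The difference was 0.52 for Acta1 (-0.12 to 1.16) and 0.18 for Tpm1 (-0.03 to 0.39). For Jph2 it was -0.05 (-0.85 to 0.75), an interval that allows a large difference either way. For Vcl, Actn1, Flna and Srf it lay between -0.01 and 0.06, and no bound of their intervals was farther from 0 than 0.26. The larger number of calls with 3C is therefore not shown to be a larger effect of UNC.

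Adding both 3C and UNC to DOX left most of the genes below their level in DOX alone. In DOX 3C UNC against DOX, 7 of the 8 tested genes fell and 0 rose, where 24.6% of all genes fell and 25.3% rose (limma), and the median log2 fold change of the 8 was -0.45. Acta1 was 2.06-fold lower (-1.04 ± 0.21, adjusted p = 0.000564), with 73.2 ± 15.7 normalised counts in DOX 3C UNC and 150.0 ± 18.8 in DOX (SD, n = 3 each). Actn1 was 1.84-fold lower (-0.88 ± 0.07, adjusted p = 5.35e-09), and Tpm1 fell by 0.85 on the log2 scale (SE 0.07, adjusted p = 1.6e-08). Flna, Tpm2 and Vcl were lower by smaller amounts (-0.50, -0.40 and -0.35). Jph2 did not pass, at -0.31 ± 0.27 (95% interval -0.87 to 0.26, adjusted p = 0.367). Srf passed narrowly (-0.17 ± 0.06, adjusted p = 0.0279), and its call was lost on leaving out replicate 1 or 2 of DOX, or replicate 1 or 3 of DOX 3C UNC (adjusted p = 0.0562, 0.0953, 0.0679 and 0.0537).

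Other genes of the pathway were read from lists of related genes that leave out the 10. Their counts stand against 7.71% of all genes that rose with UNC in the presence of 3C, 0.508% that rose with UNC in its absence, and 24.7% that fell with 3C in the absence of UNC. In the presence of 3C, 3.94% of all genes fell with UNC. With 3C in the absence of UNC, 24.7% of all genes rose. Among 4 further actin genes, 3 rose with UNC in the presence of 3C and 0 passed in its absence, while 3 fell with 3C in the absence of UNC. The smooth muscle actins Acta2 (log2 fold change 1.02 ± 0.10, adjusted p = 3.05e-06, limma) and Actg2 (1.28 ± 0.13) and cytoplasmic beta-actin, Actb (0.30 ± 0.07), were those that rose. Their log2 fold changes with 3C in the absence of UNC were -2.75 for Acta2, -2.82 for Actg2 and -0.72 for Actb. The 2 smooth muscle actins are closely related, and how reads that match both genes were counted was not given.

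Of 20 tested tropomyosin, alpha-actinin, filamin and vinculin partner genes, 9 rose with UNC in the presence of 3C, 0 fell and the median was 0.26. They included Tpm4, another tropomyosin (0.41), Itga5, the fibronectin receptor subunit (0.52), and Pdlim7, which binds tropomyosin (0.56). In the absence of 3C 0 of the 20 passed (limma), with a median of 0.09. Of the same 20, 18 fell and 1 rose with 3C in the absence of UNC. Among those that fell were Itgb1, integrin beta-1 (-0.81), Itga5 (-0.83) and Pdlim7 (-1.17).

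Of the 23 MRTF-SRF target genes, 17 rose with UNC in the presence of 3C and 0 fell, with a median of 0.41. Myl9, a regulatory light chain of non-muscle and smooth muscle myosin, rose by 1.36 ± 0.12 (adjusted p = 2.81e-06, limma). Fhl2, a LIM protein that binds SRF, rose by 0.71 and the calponin Cnn2 by 0.60. In the absence of 3C 3 of the 23 rose and 0 fell, with a median of 0.22. They were Cnn1, the basic calponin (1.18), Myl9 (0.75) and Fhl2 (0.44). Of the same 23, 20 fell and 0 rose with 3C in the absence of UNC, with a median of -1.17. They included Ccn2, a matrix protein also induced by TGF-beta (-5.34), Tagln, the actin-binding transgelin (-3.71), and Cald1, caldesmon (-1.86). The promoter windows of 6 of the 20 list genes that had one held the CArG box, among them Myl9, Cnn2 and Fhl2.

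The TCF-SRF immediate early genes differed in direction with 3C. With UNC in the presence of 3C 2 of 11 rose, Junb, a subunit of AP-1 (0.31), and Dusp1, a phosphatase of MAP kinases (0.53), and in its absence 0 passed (limma), with a median of -0.03. The 2 of 11 with UNC stand against 7.71% of all genes and are too few to read as a result about the list. Under 3C in the absence of UNC 6 fell and 3 rose, where 24.7% of all genes fell and 24.7% rose. The 3 that rose are close to that share, so they are no result about the list. Egr2, a zinc finger factor (-3.73), and Fos, an AP-1 subunit (-1.22), fell, and Ier3 rose (1.86). Of the 5 SRF cofactor genes, Mrtfa rose by 0.25 ± 0.07 with UNC in the presence of 3C (adjusted p = 0.0282) and none passed in its absence. With 3C in the absence of UNC, Mrtfa (-0.60), Elk1 (-0.42) and Mrtfb (-0.32) fell.

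Of 18 genes for monomer binding and filament turnover, 2 rose with UNC in the presence of 3C, Gsn, which severs filaments (0.86), and Cap1, which binds monomers (0.16). Their median was 0.07, and in the absence of 3C 0 of the 18 passed (limma). Both counts are close to what those shares of all genes would give for a list of 18, so with UNC they are no result about the list. Of the 18, 14 fell with 3C in the absence of UNC. They included Tmsb4x, thymosin beta-4, which sequesters monomers (-0.97), Gsn (-1.12) and the formin Diaph3 (-0.56). Of 6 tested partners of Jph2, none rose with UNC in either medium (limma, 0 passing without 3C). Ryr2, the calcium release channel of heart, fell by 1.04 with UNC in the presence of 3C (adjusted p = 0.0364). The junctophilin Jph1 (-0.83) and Cacna1c, a calcium channel subunit (-0.45), fell with 3C in the absence of UNC, and Ryr1, the skeletal muscle release channel, rose (0.82). For a list of 6, these counts with 3C are close to the shares of all genes, so they are no result about the list. The lists overlap, since Zyx, Tpm4, Pdlim7, Vasp and Cfl1 stand in more than 1 of them.

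**Figure D4:**
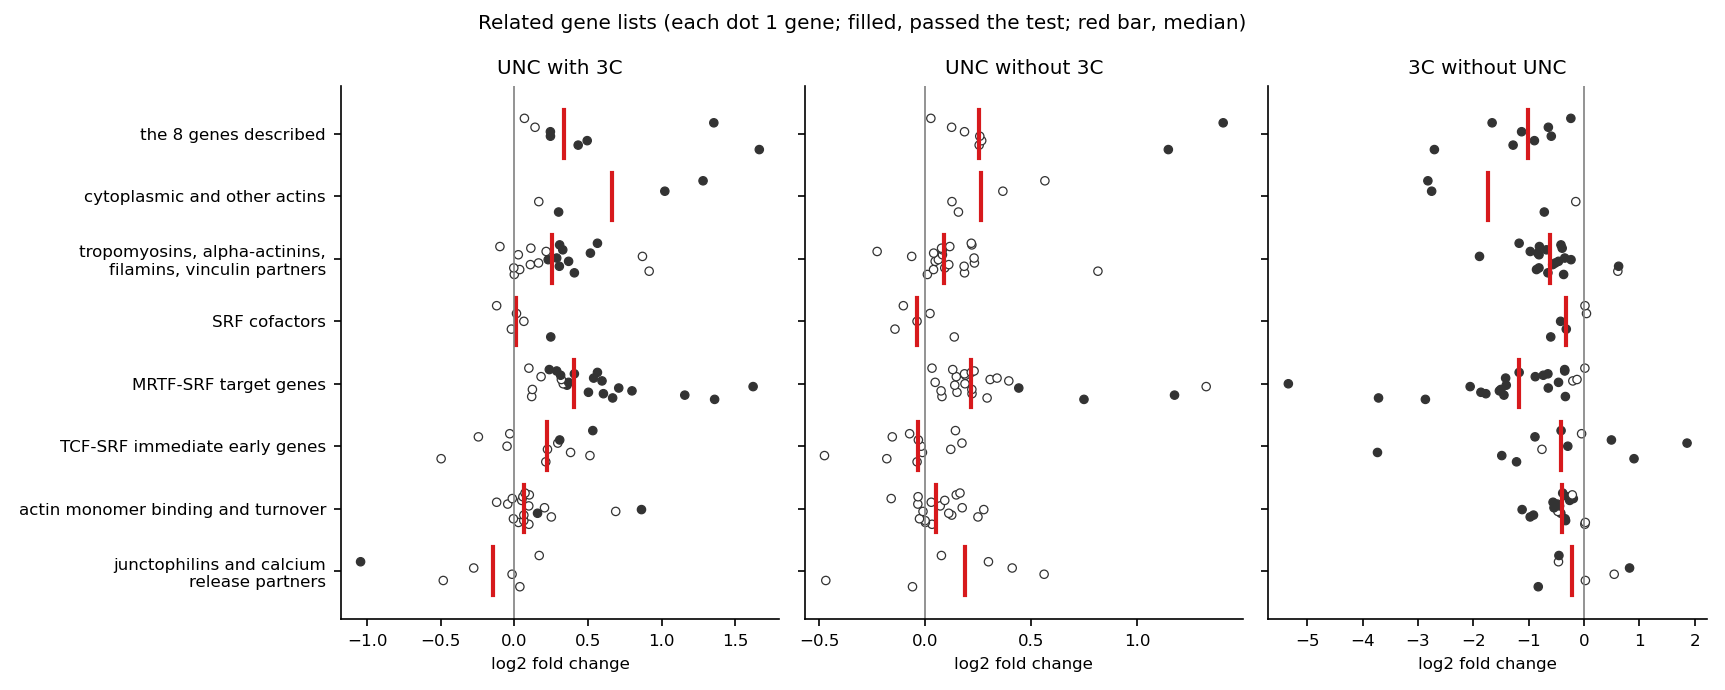
Log2 fold changes of the genes of each related list (1 dot per gene, filled where it passed at an adjusted p below 0.05 in limma; the red bar is the median of the list) for UNC with 3C, UNC without 3C and 3C without UNC. The top line of dots shows the 8 tested genes described here. With UNC in the presence of 3C the filled dots lie to the right of 0 except for Ryr2, and with 3C most lie to the left. The x axes differ between panels.

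Across the 12 libraries the log2 levels of the 8 tested genes varied together. Pearson's r over the 28 pairs of genes had a median of 0.935 and ran between 0.715 and 0.996. All points share the same 12 libraries and the 4 groups, so these values describe the group differences above. Among the genes outside the 10, those with the pattern most like Acta1 over the 12 libraries were Krt19 (r = 0.989), Cotl1 (0.989), Osbpl5 (0.988), Thsd4 (0.985) and Lmod1 (0.985). Those most like the mean of the 8 genes, each scaled to the same spread, were Myl9 (0.996), Csrp1 (0.996), Actg2 (0.995), Arhgef28 (0.995) and Cryab (0.994).

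In iPSC the question was whether cells that had received UNC early in reprogramming still differed once pluripotent. Of the 10 genes, all of which were tested (edgeR, p-values adjusted over 17987 genes), 1 rose in iPSC UNC against iPSC DMSO, where 1.27% of all genes rose, and 0 fell. It was Tpm2, with 113, 123 and 116 CPM in iPSC UNC, against 94.1, 96.4 and 81.9 CPM in iPSC DMSO. The groups did not overlap, and Tpm2 was 1.30-fold higher (log2 fold change 0.38 ± 0.07, adjusted p = 0.0258, edgeR). The call was lost without iPSC DMSO 1, iPSC UNC 1 or iPSC UNC 2 (adjusted p = 0.052, 0.0906 and 0.139). The median log2 fold change of the 10 genes was 0.14.

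Acta1 stood lower in iPSC UNC. It had 9.83, 10.5 and 12.8 CPM in iPSC UNC, against 14.2, 13.5 and 25.0 CPM in iPSC DMSO. The groups did not overlap, but a single library, iPSC DMSO 3, was well above the other 2 of its group. The log2 fold change was -0.66 ± 0.21 and did not pass (adjusted p = 0.233, edgeR), and without iPSC DMSO 3 it was -0.32 (adjusted p = 0.404). Actc1 was highest in the same library, with 0.0406, 0.527 and 1.16 CPM in iPSC UNC, against 1.01, 0.354 and 2.42 CPM in iPSC DMSO. Its log2 fold change of -1.15 ± 0.75 did not pass (adjusted p = 0.571), and the groups overlapped.

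Among the other genes in iPSC, Jph2 had 11.3, 12.3 and 11.7 CPM in iPSC UNC, against 7.90, 10.0 and 9.12 CPM in iPSC DMSO. Its log2 fold change of 0.39 ± 0.11 did not pass (adjusted p = 0.17, edgeR), although the groups did not overlap. Tpm1 was at 304 ± 6.80 CPM in iPSC UNC and 266 ± 22.3 CPM in iPSC DMSO (SD, n = 3 each). At 0.20 ± 0.06 it did not pass (adjusted p = 0.221), but did without iPSC DMSO 3 (adjusted p = 0.0349). Srf was at 88.2 ± 2.67 CPM in iPSC UNC and 77.1 ± 4.18 CPM in iPSC DMSO, a difference of 0.20 ± 0.06 that did not pass (adjusted p = 0.202). Flna (0.19), Actn1 (0.09) and Vcl (0.09) did not pass, nor did Myocd, which was under 1 CPM in every iPSC library. In all, 6 of the 10 genes stood higher in every iPSC UNC library than in any iPSC DMSO library and 1 stood lower, where the same held for 8.95% and 10.3% of all genes tested. By the test itself 1.27% of all genes were called higher and 0.0389% lower.

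**Figure D5:**
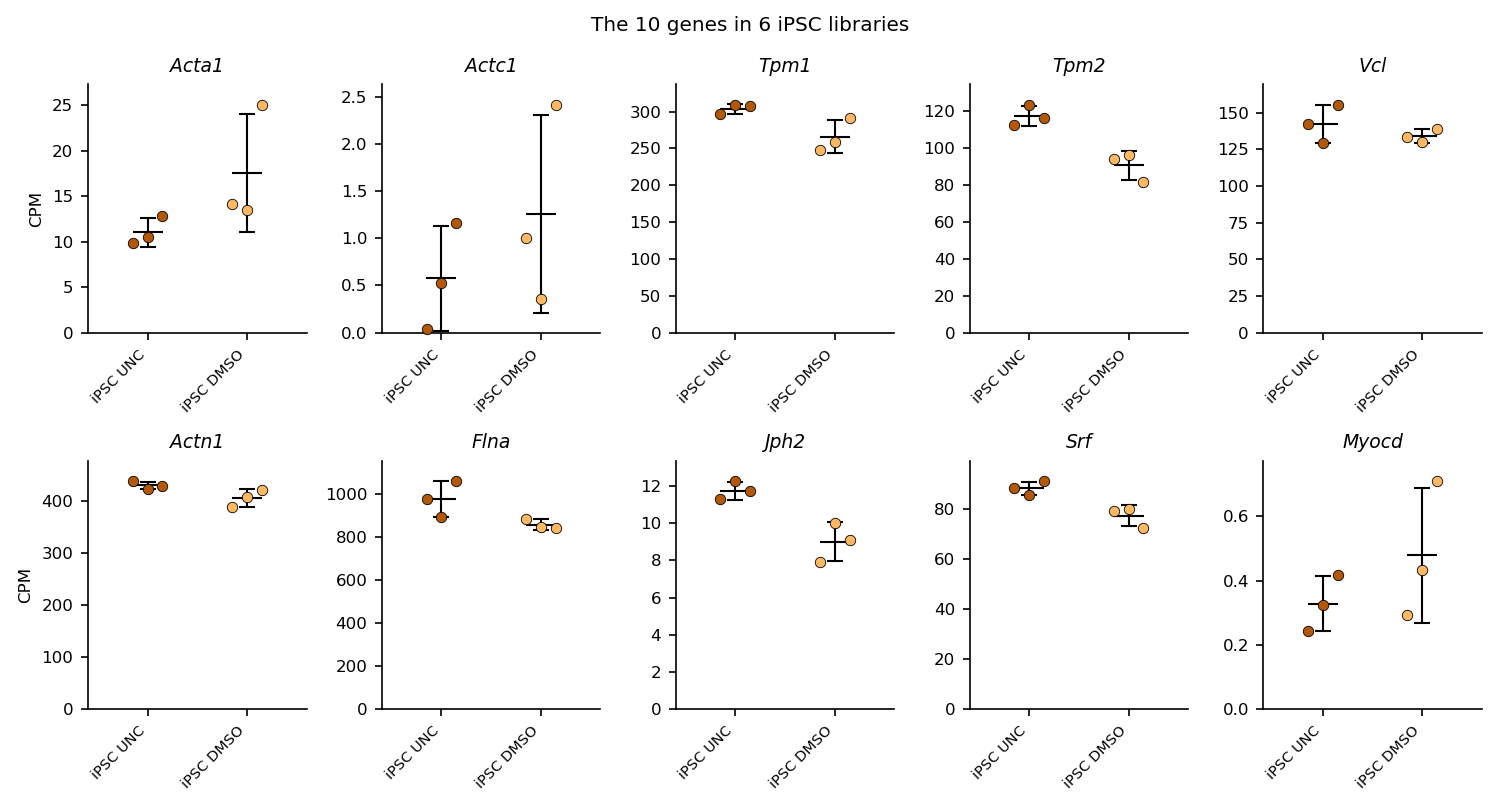
CPM of the 10 genes in the 6 iPSC libraries. Each point is 1 library, the wide bar is the mean and the whiskers are ± SD (n = 3). The y axes start at 0 and differ between genes. Tpm2 is higher in iPSC UNC, and Acta1 has 1 high iPSC DMSO library at 25.0 CPM.

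The smooth muscle actins rose in iPSC UNC, Acta2 by 0.75 ± 0.08 (adjusted p = 0.00216, edgeR) and Actg2 by 0.69 ± 0.09 (adjusted p = 0.00486). Of the 23 MRTF-SRF target genes, 8 rose and 0 fell, among them Myl9 (0.58), Tagln (0.53) and Tgfb1i1, a paxillin relative (0.68). Itgb1 (0.29) and Parva, which links integrins to actin (0.56), were the 2 of 21 partner genes that rose, and Gsn (0.67) was the 1 of 18 turnover genes. Fibroblast markers rose beside them, 6 of the 7 tested, among them Col1a1 (0.70), Col1a2 (0.75) and Col3a1 (0.60), all of which are collagen chains. The 8 markers summed to 2502 to 2536 CPM in iPSC UNC, against 1399 to 1755 CPM in iPSC DMSO, with Lum under 1 CPM in both groups and Dcn under 1 CPM in iPSC DMSO. The 7 pluripotency markers summed to 3450 to 3750 CPM in iPSC UNC, against 3879 to 3955 CPM in iPSC DMSO, and 0 of them passed (edgeR). Smooth muscle markers summed to 109.9 to 111.5 CPM in iPSC UNC, against 90.9 to 111.3 CPM in iPSC DMSO. Of these 6 markers 2 rose and 0 fell (edgeR), with a median log2 fold change of 0.44, where 1.27% of all genes rose. The 9 skeletal muscle markers summed to 113.6 to 113.8 CPM in iPSC UNC, against 109.4 to 121.2 CPM in iPSC DMSO. In both groups 4 of them were under 1 CPM. The 8 cardiac muscle markers summed to 17.4 to 19.8 CPM in iPSC UNC, against 20.7 to 22.5 CPM in iPSC DMSO, with 3 under 1 CPM in both. Of the 6 tested in each of these 2 lists, 0 passed (edgeR). The part of fibroblast-like cells, feeder cells among them, in the iPSC values of the 10 genes was not tested.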

How the data were processed

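RNA was sequenced in 18 of the 28 samples; the 10 H3K9me2 profiles are left out here. Libraries were made from total RNA with a stranded, ribosome-depleted kit, per the labels. The submitters' processing notes name the build mm10 and, with no order, DESeq without a version, HTSeq 0.5.4p3, TopHat2 2.1.0 and SAMtools 1.8; settings, and whether strand was used in counting, were not given in the sources used here. The deposited reprogramming values are a signal: read counts that the authors had divided by 1 factor per library. Dividing by that step gave whole reads for 100% of values within 0.01 read. The deposited iPSC values are raw counts per gene. The reprogramming table has 2 more columns that belong to none of the samples listed; they stayed out. For iPSC DMSO the replicate numbers of titles and descriptions differ, and the title numbers are used; the iPSC labels also speak of a harvest after 48 hours.

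All 12 reprogramming libraries entered 1 limma 3.58.1 fit (R 4.3.3, empirical Bayes with trend) on log2(value + 1), which understates changes of low genes. A gene entered with 3 or more libraries at 10 or higher. For the iPSC libraries edgeR 4.0.16 was used (TMM, default expression filter, quasi-likelihood test). Adjustment was by Benjamini-Hochberg over all genes tested, with calls below 0.05. On the recovered reads edgeR called 94 genes for UNC without 3C and 2096 for UNC with 3C, against 98 and 1880 in limma. DESeq2 1.42.0, other pseudocounts, filters and scalings, a replicate block and leaving out each library were alternatives. On simulated data with 200 changed genes, 54.39% of changes of 0.5 and 95.65% of changes of 1 on the log2 scale were recovered for UNC without 3C (57 and 69 such genes among 15859). For iPSC 51.76% and 95.45% were recovered (85 and 66 among 18022). The simulation gave all genes 1 fixed dispersion and no replicate effect, and changed only genes above a minimum mean read count. It may overstate recovery for genes with a wider spread between libraries, such as Acta1 and Jph2.

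Libraries of a group differed by more than counting error (chi-square per degree of freedom 3.14 to 10.98 over 18 pairs). Nothing says that they were separate cultures, so p-values measure the spread between libraries. To look for pairing, the log2 level of each gene was taken as its deviation from the mean of its group. In these deviations, all 6 libraries of every reprogramming comparison correlated best with the library of their own number. Deviations cancel within a group, so the correlations are not independent of each other. The deviations of same-numbered pairs correlated at 0.110 to 0.192 for UNC with 3C and 0.094 to 0.2225 for UNC without 3C. For 3C without and with UNC they were at 0.106 to 0.156 and 0.155 to 0.205, and for DOX 3C UNC against DOX at 0.068 to 0.128. This pairing was read from the data and not from the labels. The main fit had no replicate block, so its p-values are unpaired in all comparisons. Values with the block are named as such, and are given by gene for UNC without 3C. The 10 genes and all lists were chosen with earlier results of these data known. Genes named from a list are those called with the smallest p, at most 3 a comparison. Names and positions are from RefSeq tables (GRCm38.p6) matched by identifier or symbol; all 10 genes matched.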

Additional observations from a re-analysis of the deposited data

Results flagged for a closer look

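Acta1 moved in opposite directions with UNC in iPSC and in reprogramming cells. Every iPSC UNC library was lower than every iPSC DMSO library (log2 fold change -0.66, n = 3 each), while every DOX UNC library was higher than every DOX library (1.15) and every DOX 3C UNC library higher than every DOX 3C library (1.66). The difference between these effects was not tested, since the tables were normalised separately. The iPSC difference itself did not pass (adjusted p = 0.233, edgeR). Without iPSC DMSO 3, the highest library of its group at 25.0 CPM, the iPSC log2 fold change was -0.32.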

How the results depend on the processing

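Over 812 values of the single genes under the alternatives, 0 of those called changed sign, 19 of those not called did, 24 calls were lost and 16 were gained. Counts of calls that moved most were as follows. With DESeq2, UNC without 3C called 170 genes and 5 of the 8 tested genes, the difference between the UNC effects called 156 genes in place of 10, and iPSC called 374 genes and 2 of the 10. The difference called 26 genes at a pseudocount of 8. With no filter on low counts iPSC called 823 genes in place of 236, and 3 of the 10 in place of 1. The replicate block (a paired fit) gave 409 genes and 6 of the 8 for UNC without 3C, where all 6 libraries correlated best with their own number. It gave 407 genes and 2 of the 10 for iPSC, where 4 of 6 did. In neither of these 2 comparisons did every same-numbered pair correlate above 0.1. The lowest pair was at 0.094 for UNC without 3C and at 0.048 for iPSC. The block gave 413 genes and 0 of the 8 for the difference between UNC effects, and 2871 genes for UNC with 3C, and it changed no other count by over 1.5 times.

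With DESeq2, Tpm1, Tpm2 and Vcl passed for UNC without 3C (adjusted p = 0.0285, 0.0207 and 0.01). Acta1 passed in iPSC with DESeq2, with no filter and with the replicate block (adjusted p = 0.0287, 9.62e-07 and 0.023). In the difference between the UNC effects, Flna was -0.00484 under TMM scaling, and Jph2 was 0.0242 with edgeR and 0.0425 with DESeq2. The cause was not tested for any of these.

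Leaving out 1 library in turn gave 19 to 144 genes and 0 to 4 of the 8 for UNC without 3C, and 1039 to 1917 genes and 4 to 7 of the 8 for UNC with 3C. It gave 0 to 70 genes for the difference, and 85 to 216 genes and 0 to 2 of the 10 for iPSC. The signs that changed were those of Srf for UNC without 3C (-0.00207 to 0.0492) and with 3C (-0.00273 to 0.11), and of Jph2 for DOX 3C UNC against DOX (-0.58 to 0.0345). In the difference, Vcl (-0.0688 to 0.0415), Flna (-0.0260 to 0.0633), Jph2 (-0.39 to 0.22) and Srf (-0.0291 to 0.0831) changed sign. Leaving out any 1 library left all 8 genes lower for 3C without UNC. Actc1 and Myocd, with at most 11 reads in a reprogramming library, are limited by depth.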
